A study of Mus musculus with 12 samples.

Results

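The genes described here are 10 enzymes that build triglyceride or take it apart, Gpam, Agpat2, Agpat3, Lpin1, Lpin2, Mogat1, Dgat1, Dgat2, Pnpla2 and Mgll, measured in the liver of mice on a high-fat diet (HFD). They were chosen by name, all 10 were found among the 23849 gene symbols of the expression table, and all 10 passed the minimum of 1 FPKM (fragments per kilobase of transcript, scaled to the mapped reads of the library) on average, which left 9806 genes for testing. Liver RNA was sequenced from 12 male C57BL/6J mice, described as 8 weeks of age, all fed HFD, so that no group on another diet enters the comparisons. The 4 groups of 3 mice were Cntrl ZT0, Libramed ZT0, Cntrl ZT12 and Libramed ZT12. Cntrl mice received vehicle, which was drinking water, and Libramed mice received Policaptil Gel Retard, a fiber product that swells into a gel. Both were gavaged once a day, shortly before lights off, for the last 2 weeks of a longer period on HFD. Zeitgeber time (ZT) counts the hours from lights on, so ZT0 opens the resting phase of a nocturnal animal and ZT12 its active phase. ZT0 and ZT12 livers therefore differ in time since gavage as well as in time of day, and these cannot be told apart.

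Liver makes triglyceride mainly by the glycerol phosphate pathway, in which acyl groups are added to glycerol-3-phosphate one after another, a phosphate is removed to give diacylglycerol, and a last acyl group completes the molecule. A shorter route starts from monoacylglycerol. Lipases reverse the order and release fatty acids for oxidation or for export in lipoproteins, and the genes of both directions are known to follow the daily cycle of feeding and fasting.

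The libraries differed in depth by a factor of 1.77 at most, judged from genes near the detection limit, since the table holds no read counts. Of 8 hepatocyte markers, 7 were detected in every liver, while Alb was listed at 0 in all 12. At ZT0 the summed level was 30290 to 34290 FPKM in Cntrl and 35740 to 44160 FPKM in Libramed. At ZT12 it was 29120 to 33120 and 33560 to 40390 FPKM. Apoa1 made up most of the sum, with means of 22770 and 29390 FPKM at ZT0 and 21730 and 25320 FPKM at ZT12. Tat and Hnf4a averaged lower in Libramed at ZT0, and Cyp3a11 at ZT12. The part of these markers in the differences between treatments was not tested. Of 6 fat markers, Lep and Retn were at 0 in every library and neither Adipoq nor Plin1 exceeded 0.0493 FPKM, with a summed level of 10.4 to 52.7 FPKM that Cfd and Fabp4 made up. Skeletal muscle genes stood out in 1 liver. Libramed ZT12 replicate 3 had a summed level of 47.9 FPKM over 5 muscle markers, Ckm at 10.4 and Acta1 at 16.4 FPKM, and in the other libraries both of these were at 0, with a summed level of at most 1.59 FPKM in the other 3 groups. Lpin1, Pnpla2 and Mgll are also active in muscle or fat, so for each a difference between times without this library is given below. Their differences between treatments without it are not given. Clock genes known to be high towards ZT12 summed to 22.7 to 57.8 FPKM at ZT0 and 159 to 232 FPKM at ZT12. In bulk RNA of a tissue, fewer cells of a type and less RNA per cell cannot be told apart.

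Most of the enzymes were higher at ZT12 than at ZT0, among them members of both directions of the pathway. Over both treatments, 7 of the 10 rose (Lpin1, Mgll, Dgat2, Lpin2, Pnpla2, Mogat1 and Dgat1), none fell, and Gpam, Agpat2 and Agpat3 did not pass (limma on log2(FPKM + 1), two-sided, Benjamini-Hochberg adjusted p under 0.05, 12 mice). In the same comparison 29.7% of all genes tested passed and 15.9% passed upward, while 41.0% had an unadjusted p under 0.05. The median difference of the 10 was 0.53 on the log2 scale, against 0.01 over all genes. The exact permutation test over the mice, with 400 arrangements within treatments and a smallest possible p of 0.005, gave a two-sided p of 0.005 for Lpin1, Lpin2, Dgat2, Pnpla2 and Mgll, 0.01 for Dgat1 and 0.02 for Mogat1. All 7 calls held with each of the 12 libraries left out. Mogat1 was among the genes tested only through its ZT12 livers, as given below.

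Within Cntrl mice alone, 5 of the 10 rose (Lpin1, Lpin2, Dgat2, Pnpla2 and Mgll) and none fell, against 10.4% of all genes in either direction and 5.62% upward. Those 5 were also the members whose ZT0 and ZT12 mice did not overlap, as was the case for 33.2% of all genes. A sixth, Mogat1, had an unadjusted p under 0.05, which 27.4% of genes had. Within Libramed mice 4 rose (Lpin1, Dgat2, Pnpla2 and Mgll), against 12.4% of genes in either direction and 7.0% upward. There 7 members had an unadjusted p under 0.05, against 29.2% of genes. The groups did not overlap in 8 members, against 34.9% of genes, with Agpat3 the single one that was lower at ZT12. With 6 mice per fit most of these calls were close to the threshold. Without 1 library the number of members that rose lay between 1 and 5 in Cntrl and between 2 and 4 in Libramed, and Lpin1 alone passed in every such fit of both treatments, with Dgat2 also doing so in Libramed. Exact tests of 3 mice against 3 cannot go below p = 0.1.

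**Figure D1:**
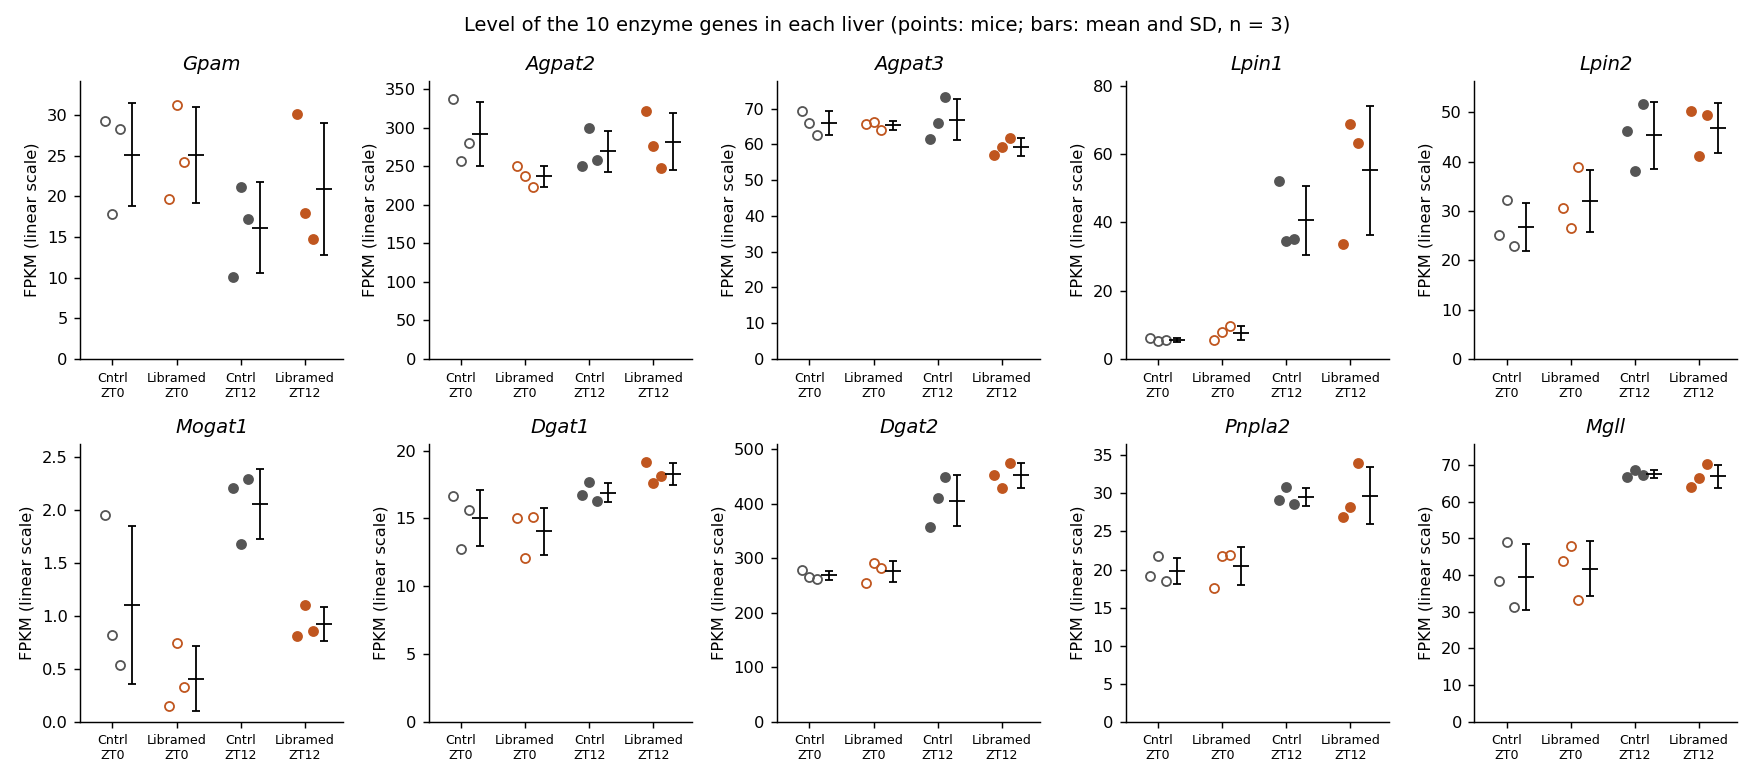
Level of each enzyme gene in FPKM on a linear axis from 0, by group. Each point is 1 liver (open at ZT0, filled at ZT12, grey for Cntrl, orange for Libramed) and the bar beside the points is the mean with its SD, n = 3. Lpin1 lies between 5.14 and 9.68 FPKM in the 6 mice at ZT0 and between 33.7 and 68.8 FPKM in the 6 at ZT12, while Agpat3 lies between 57.0 and 73.2 FPKM in all 12.

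The stretch of DNA just before the transcription start of 4 members that rose, Lpin1, Lpin2, Pnpla2 and Mgll, is shown because these genes moved together between the times. Each is the 250 bases upstream of a RefSeq start on GRCm38.p6 (the build of the deposited values, mm10), read 5′ to 3′ along the gene's own strand, in lower case with any match to the motifs searched in capitals.
Lpin1 (chr12:16610967-16611216, minus strand): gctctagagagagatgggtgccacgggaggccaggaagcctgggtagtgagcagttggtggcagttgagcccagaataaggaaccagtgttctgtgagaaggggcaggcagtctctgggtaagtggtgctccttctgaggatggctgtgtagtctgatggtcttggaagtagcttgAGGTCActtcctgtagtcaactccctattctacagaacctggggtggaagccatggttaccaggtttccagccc
Lpin2 (chr17:71183282-71183531, plus strand): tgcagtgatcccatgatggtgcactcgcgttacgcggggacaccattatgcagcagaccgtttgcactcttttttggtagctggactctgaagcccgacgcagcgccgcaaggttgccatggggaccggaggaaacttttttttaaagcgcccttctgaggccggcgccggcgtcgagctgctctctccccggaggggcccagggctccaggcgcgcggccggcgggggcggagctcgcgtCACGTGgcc
Mgll (chr6:88724162-88724411, plus strand): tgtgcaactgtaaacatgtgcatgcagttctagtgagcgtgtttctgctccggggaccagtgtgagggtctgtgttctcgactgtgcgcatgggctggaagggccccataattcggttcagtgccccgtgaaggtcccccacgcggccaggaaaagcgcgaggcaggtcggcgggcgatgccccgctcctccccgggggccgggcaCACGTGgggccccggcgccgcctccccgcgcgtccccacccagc
Pnpla2 (chr7:141454938-141455187, plus strand): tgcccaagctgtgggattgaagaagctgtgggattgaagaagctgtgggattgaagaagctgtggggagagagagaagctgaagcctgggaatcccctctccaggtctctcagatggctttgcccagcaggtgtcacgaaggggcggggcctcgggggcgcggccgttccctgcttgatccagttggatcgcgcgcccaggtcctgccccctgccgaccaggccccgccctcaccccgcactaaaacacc
The strings of letters searched were the following, on both strands: the E-box CACGTG bound by clock and bHLH factors, the D-boxes TTATGTAA and TTACGTAA, the cyclic AMP response element TGACGTCA, and the nuclear receptor half-site AGGTCA. The E-box stood 44 bases before the Mgll start and 9 bases before the Lpin2 start, and it occurs in 6.04% of 32536 such windows. The half-site stood 74 bases before the Lpin1 start, and 14.0% of windows hold it. In the Pnpla2 window none of the strings was present. Lpin2 and Mgll also have other RefSeq starts, whose windows held none of the strings and are not shown. The window of Mogat1, which also rose, held none either and is not shown. Of the 10 members 8 had at least 1 window in the RefSeq table, 12 windows in all, and 4 of the 12 held any string. The fourth was a second Gpam start with AGGTCA, in a gene that did not rise. D-boxes, present in 0.925% of windows, and the cyclic AMP response element, present in 1.56%, were in none of the 12. The Lpin2 window lies inside the annotated span of the Lpin2 gene, and Gm26588, an antisense gene, shares 167 exon bases with Mgll. These matches describe letters in the window and no binding was measured.

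Over both treatments Lpin1, a phosphatidate phosphatase, had the largest difference between times of the 10 members, while its relative Lpin2 lay below Mgll and Dgat2. Lpin1 (chr12:16535669-16610966, minus strand) encodes lipin 1, which removes the phosphate from phosphatidate to give diacylglycerol and also acts with nuclear receptors on fat oxidation genes. In Cntrl mice it stood at 6.07, 5.14 and 5.56 FPKM at ZT0 and at 52.2, 34.5 and 35.2 FPKM at ZT12. In Libramed mice it stood at 5.46, 7.78 and 9.68 FPKM at ZT0 and at 33.7, 68.8 and 63.2 FPKM at ZT12. Every ZT12 liver lay well above every ZT0 liver in both treatments, and the widest spread was among the Libramed livers at ZT12, where replicate 1 was the lowest. The rise was 2.63 on the log2 scale in Cntrl (SE 0.17, adjusted p = 0.00215, limma) and 2.67 in Libramed (SE 0.29, adjusted p = 0.00345, limma), or 6.21-fold and 6.36-fold. Over both treatments it was 2.65 (95% interval 2.26 to 3.04), and it was 2.59 without the library that held muscle RNA.

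Lpin2 (chr17:71182560-71249817, plus strand) encodes lipin 2, an enzyme of the same activity and the main lipin of liver at ZT0 in these data. Cntrl livers had 25.2, 32.3 and 22.9 FPKM at ZT0 and 46.3, 38.2 and 51.6 FPKM at ZT12. Libramed livers had 30.6, 26.5 and 38.9 FPKM at ZT0 and 50.2, 41.1 and 49.4 FPKM at ZT12. The times did not overlap in either treatment, although the highest Libramed liver at ZT0 came within a few FPKM of the lowest at ZT12. The difference was 0.74 in Cntrl (SE 0.16, adjusted p = 0.0337, limma), a call lost in 5 of 6 fits without 1 library, where the adjusted p reached 0.110. It was 0.55 in Libramed with an adjusted p of 0.0575 (limma). The fit of both treatments gave 0.65 (SE 0.12, adjusted p = 0.00146, limma).

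Because FPKM is scaled by transcript length, the shares of the lipins can be set side by side. Lpin1 made up 16.7% ± 3.1 (SD, n = 3) of the summed FPKM of Lpin1, Lpin2 and Lpin3 in Cntrl at ZT0 and 18.6% ± 3.6 in Libramed at ZT0. At ZT12 its share was 46.2% ± 6.2 in Cntrl and 52.2% ± 11.6 in Libramed. The highest share at ZT0 was 21.7% and the lowest at ZT12 was 39.4%, so no liver of 1 time entered the range of the other. Lpin3 stayed between 1.11 and 1.69 FPKM in all 12 livers, and Lpin2 held most of the remainder, from 74.0% to 82.6% at ZT0 and from 37.0% to 58.6% at ZT12.

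**Figure D2:**
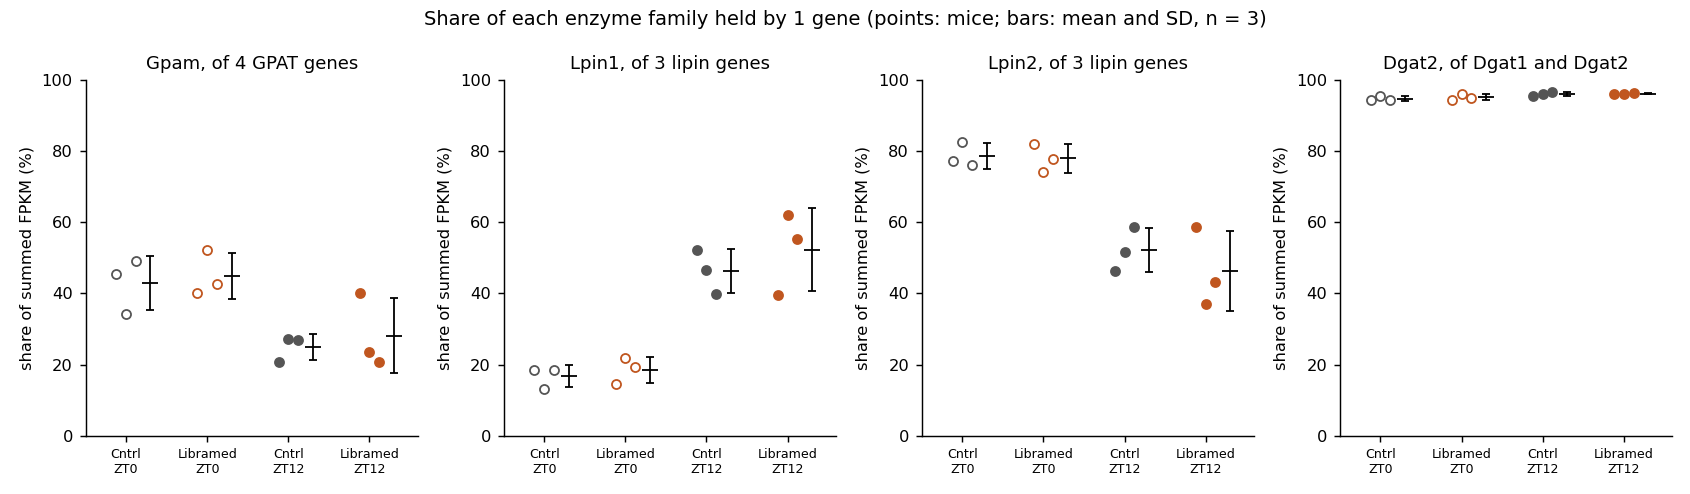
Share of the summed FPKM of an enzyme family that 1 gene holds, in percent, by group. Points are livers (open at ZT0, filled at ZT12, grey for Cntrl, orange for Libramed) and bars are the mean and SD, n = 3. The Lpin1 share lies at or under 21.7% at ZT0 and at or above 39.4% at ZT12, the Gpam share runs from 20.6% to 52.3%, and the Dgat2 share from 94.4% to 96.5%.

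The enzymes of the last acylation differed in level more than in direction. Dgat2 (chr7:99153658-99182719, minus strand) encodes the diacylglycerol acyltransferase that handles newly made fatty acids in liver. Its level was 279, 265 and 263 FPKM in Cntrl at ZT0 and 358, 410 and 450 FPKM at ZT12. In Libramed it was 255, 291 and 282 FPKM at ZT0 and 453, 429 and 474 FPKM at ZT12. The times stayed apart in both treatments. The rise was 0.59 in Cntrl (SE 0.10, adjusted p = 0.0198, limma) and 0.71 in Libramed (SE 0.09, adjusted p = 0.00477, limma), or 1.5-fold and 1.64-fold. In Cntrl the call was lost in 3 of 6 fits without 1 library (ZT0 replicate 3, ZT12 replicate 2 or ZT12 replicate 3), with an adjusted p of up to 0.0871. Over both treatments it was 0.65 (adjusted p = 3.14e-05, limma).

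Dgat1 (chr15:76502015-76511953, minus strand), the other diacylglycerol acyltransferase, unrelated in sequence to Dgat2, was far lower. Cntrl livers had 16.7, 12.7 and 15.7 FPKM at ZT0 and 16.7, 17.7 and 16.3 FPKM at ZT12, which overlap. Libramed livers had 15, 12.1 and 15.1 FPKM at ZT0 and 19.2, 17.6 and 18.1 FPKM at ZT12, which do not. In Libramed the difference was 0.36 with an unadjusted p of 0.00938 and an adjusted p of 0.063 (limma). Over both treatments it was 0.27 (SE 0.08, adjusted p = 0.0233, limma), 1.20-fold and the smallest change among the 7 that rose. Dgat2 held 94.7% ± 0.61 of the pair's FPKM in Cntrl at ZT0 and 96.1% ± 0.20 in Libramed at ZT12 (SD, n = 3).

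Mogat1 (chr1:78510991-78538173, plus strand) encodes monoacylglycerol acyltransferase 1, which makes diacylglycerol by the shorter route and is known to be induced in fatty liver. It was the least abundant member, at 1.12 FPKM on average over the 12 livers, so it passed the minimum by little, at percentile 2.3 of the mean levels of the genes tested. Cntrl livers had 1.95, 0.821 and 0.539 FPKM at ZT0 and 2.20, 1.68 and 2.29 FPKM at ZT12. Libramed livers had 0.147, 0.747 and 0.329 FPKM at ZT0 and 0.806, 1.11 and 0.856 FPKM at ZT12. In Cntrl 1 ZT0 liver lay within the ZT12 range, and in Libramed the times were apart. Over both treatments Mogat1 rose by 0.53 (SE 0.15, adjusted p = 0.0197, limma). Its group means were 1.10 and 0.408 FPKM at ZT0 and 2.06 and 0.923 FPKM at ZT12, in Cntrl and Libramed. It reached the minimum only through its ZT12 livers, the side where it was higher, so the filter favoured this rise. The call held with no minimum. Within each treatment the adjusted p was 0.165 (Cntrl, difference 0.59) and 0.106 (Libramed, difference 0.47), both by limma. The pseudocount of 1 compresses a gene at this level, and with 0.1 the difference over both treatments was 1.09. Mogat1 shares 200 exon bases with a gene on the opposite strand, BC035947, and the sources disagree on whether the libraries kept strand, so part of so low a value is uncertain.

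Both lipases rose over both treatments, as 5 of the 8 synthetic members did. Pnpla2 (chr7:141455198-141460743, plus strand) encodes adipose triglyceride lipase, which makes the first cut in stored triglyceride. Its level was 19.1, 21.8 and 18.5 FPKM in Cntrl at ZT0 and 29.2, 30.8 and 28.6 FPKM at ZT12. In Libramed it was 17.5, 21.8 and 22.0 FPKM at ZT0 and 26.9, 28.2 and 34.0 FPKM at ZT12. The lowest ZT12 liver was above the highest ZT0 liver in both treatments, and the highest of all 12 was the library with muscle RNA. The rise was 0.56 in Cntrl (SE 0.09, adjusted p = 0.0138, limma) and 0.52 in Libramed (SE 0.13, adjusted p = 0.0404, limma). In Libramed the call was lost in each of the 6 fits without 1 library, with a difference of 0.42 and an adjusted p of 0.101 without the library with muscle RNA. In Cntrl it was lost in 3 of 6, without ZT0 replicate 3, ZT12 replicate 2 or ZT12 replicate 3, where the adjusted p reached 0.0667. Over both treatments it was 0.54 (adjusted p = 0.000291, limma), and 0.50 (adjusted p = 0.000717) without the library with muscle RNA.

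Mgll (chr6:88724412-88828360, plus strand) encodes monoacylglycerol lipase, which makes the last cut and frees glycerol. Cntrl livers had 38.3, 49.1 and 31.1 FPKM at ZT0 and 66.6, 68.7 and 67.3 FPKM at ZT12. Libramed livers had 43.9, 48.0 and 33.3 FPKM at ZT0 and 64.0, 66.3 and 70.2 FPKM at ZT12. The spread was wide at ZT0, and the 6 ZT12 livers all lay within a narrow band above it. The rise was 0.78 in Cntrl (SE 0.16, adjusted p = 0.028, limma), a call that 5 of 6 fits without 1 library lost (adjusted p of up to 0.101). It was 0.68 in Libramed (SE 0.14, adjusted p = 0.0225, limma), a call lost in 3 of 6 fits without 1 library. The adjusted p was 0.0518 without ZT0 replicate 1, 0.0724 without ZT12 replicate 2, and 0.0721 (difference 0.65) without the library with muscle RNA. Over both treatments the rise was 0.73 (SE 0.11, adjusted p = 0.000377, limma), 1.66-fold.

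The 3 members of the early acylation steps, Gpam, Agpat2 and Agpat3, did not pass in either direction over both treatments. Gpam (chr19:55067268-55127238, minus strand) encodes the mitochondrial glycerol-3-phosphate acyltransferase, the first committed step and a known target of insulin and SREBP-1c. Cntrl livers had 29.3, 17.8 and 28.4 FPKM at ZT0 and 10.1, 21.2 and 17.3 FPKM at ZT12. Libramed livers had 19.6, 31.3 and 24.3 FPKM at ZT0 and 30.1, 18.0 and 14.8 FPKM at ZT12. The times overlapped in both treatments. Libramed ZT12 replicate 1 stood above the rest of its group, while Cntrl ZT12 replicate 1 and Cntrl ZT0 replicate 2 stood below theirs. The spread within groups was the widest of the 10 members (pooled SD 0.44 on the log2 scale). Gpam did not pass over both treatments (unadjusted p = 0.0535, adjusted p = 0.129, limma), with a 95% interval of -0.93 to 0.01 for ZT12 minus ZT0. Without Libramed ZT12 replicate 1, the liver most against a fall, Gpam fell by 0.60 on the log2 scale (SE 0.19, adjusted p = 0.0366, limma, 11 mice). This was the only fit of both treatments without 1 library in which it passed. Within Cntrl, Cyber-T gave Gpam an adjusted p of 0.0371.

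The share of Gpam among the 4 glycerol-3-phosphate acyltransferase genes (with Gpat2, Gpat3 and Gpat4) was 42.9% ± 7.7 in Cntrl at ZT0 and 24.9% ± 3.6 at ZT12 (SD, n = 3). It was 45.0% ± 6.4 in Libramed at ZT0 and 28.1% ± 10.5 at ZT12. The Cntrl mice of the 2 times did not overlap in this share, from 34.3% to 49.0% against 20.9% to 27.1%. Among Libramed mice only replicate 1 at ZT12, at 40.1%, came near the ZT0 range, which began at 40.1%. Gpat4, an enzyme of the same step in the endoplasmic reticulum, was the other abundant gene of the family, and the share moves with it. Its mean went from 30.2 to 43.7 FPKM in Cntrl and from 27.6 to 49.8 FPKM in Libramed between ZT0 and ZT12, while Gpam averaged 25.1 and 16.2 FPKM in Cntrl and 25.1 and 20.9 FPKM in Libramed and did not pass.

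Agpat2 and Agpat3 encode enzymes that acylate lysophosphatidate to phosphatidate, and loss of Agpat2 is known to cause lipodystrophy with fatty liver. Agpat2 (chr2:26593057-26604417, minus strand) had 338, 257 and 280 FPKM in Cntrl at ZT0 and 250, 300 and 258 FPKM at ZT12. In Libramed it had 250, 237 and 223 FPKM at ZT0 and 321, 276 and 248 FPKM at ZT12. Times overlapped in both treatments, and the 95% interval of the difference over both treatments ran from -0.15 to 0.28. Agpat3 (chr10:78269178-78352489, minus strand) was the steadiest member, between 57.0 and 73.2 FPKM in all 12 livers, with an interval of -0.18 to 0.07. Agpat2 held 75.4% to 82.4% of the summed FPKM of Agpat1 to Agpat5. It shares 64 exon bases with Egfl7 on the opposite strand, which did not exceed 15.8 FPKM.

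**Figure D3:**
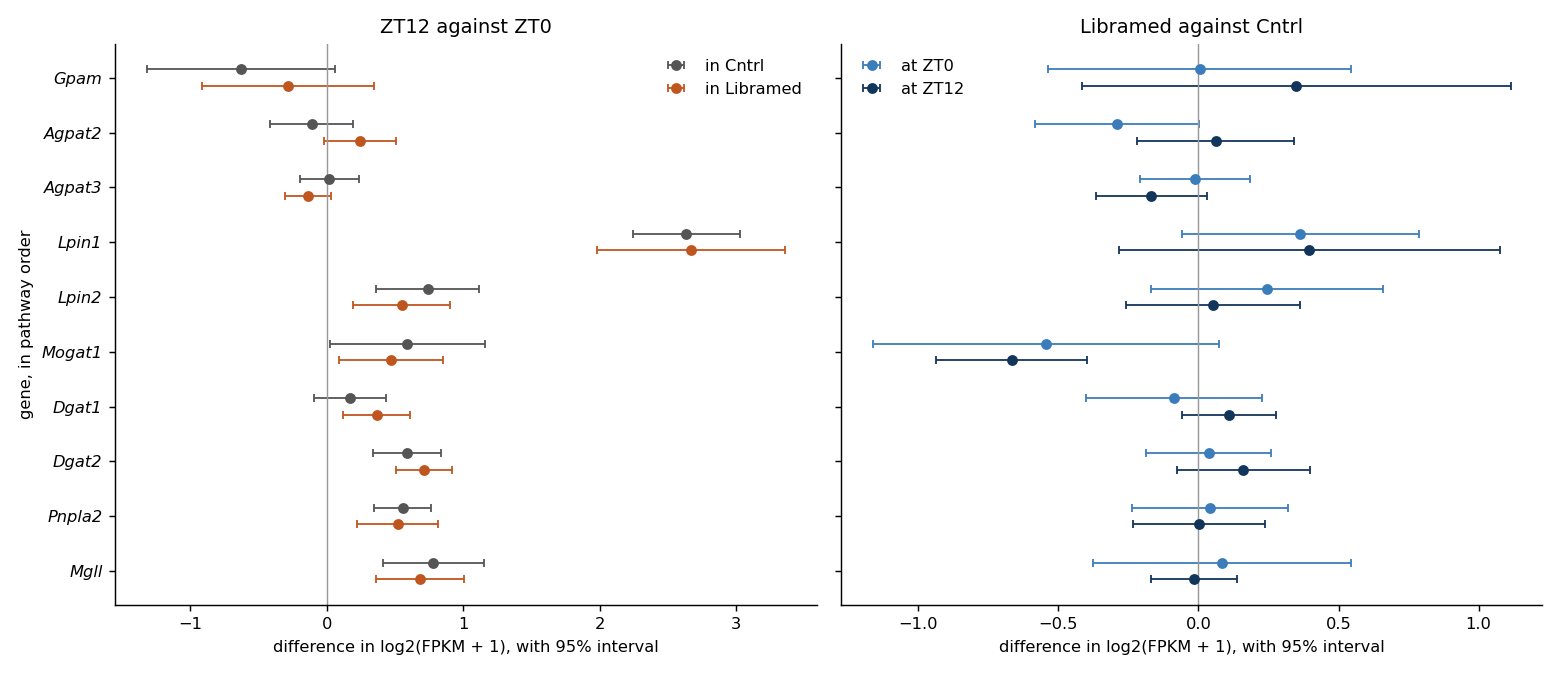
Differences in log2(FPKM + 1) of the 10 genes with 95% intervals from limma, ZT12 against ZT0 on the left (grey in Cntrl, orange in Libramed) and Libramed against Cntrl on the right (light blue at ZT0, dark blue at ZT12), 6 mice per fit. Lpin1 lies at 2.63 and 2.67 on the left, and on the right the interval of Mogat1 at ZT12, from -0.94 to -0.40, is the only one that leaves out 0.

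Libramed against Cntrl asks whether the fiber blend shifted these transcripts at either time. No member passed the adjusted threshold in limma or in Cyber-T. At ZT0 none of the 10 had an unadjusted p under 0.05, against 9.23% of all genes, and adjusted calls were at 0% of genes. The groups did not overlap in 1 member (Agpat2, lower in Libramed), against 15.1% of genes. At ZT12 only Mogat1 had an unadjusted p under 0.05 and groups apart, against 6.74% and 13.1% of genes, and 0% passed the adjusted threshold. The median difference of the 10 was 0.02 at ZT0 and 0.06 at ZT12, against -0.02 and -0.01 over all genes. Over both times 1 member, Mogat1, had an unadjusted p under 0.05, against 10.1% of genes, and none an adjusted one, against 0.0204%. The shares among members are thus near or under those of all genes.

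Mogat1 was lower with Libramed at ZT12, 0.806 to 1.11 FPKM against 1.68 to 2.29 FPKM in Cntrl, by a log2 difference of -0.67 (SE 0.11, unadjusted p = 0.000649, adjusted p = 0.601, limma). At ZT0 the 3 Libramed livers, at 0.147 to 0.747 FPKM, overlapped the Cntrl livers at 0.539 to 1.95 FPKM. Over both times the difference was -0.61 (SE 0.15, unadjusted p = 0.0017, adjusted p = 0.303, limma) and the exact permutation test within times gave p = 0.01, before any correction for the 10 members. With a pseudocount of 0.1 the difference at ZT12 was -1.08 and over both times -1.16. Its adjusted p stayed above the threshold under every alternative run, from 0.093 to 0.902 at ZT12 and from 0.228 to 0.585 over both times. Fat markers summed to 21.2 to 52.7 FPKM in Cntrl ZT12, where Mogat1 was highest, and to 10.4 to 22.0 FPKM in the other groups, ranges that overlap. The higher sums came through Cfd. Fabp4 went the other way, with its lowest mean in Cntrl ZT12 (8.88 FPKM, against 9.64 to 13.7 FPKM in the other groups). Lep, Retn, Adipoq and Plin1 were at or near 0. The part of the fat markers in the Mogat1 difference was not tested. The group means of Mogat1 were 0.408 and 0.923 FPKM in Libramed and 1.10 and 2.06 FPKM in Cntrl, at ZT0 and ZT12. The minimum of 1 FPKM was set on the mean of all 12 livers, and both Libramed means lay under it. Mogat1 was therefore tested only because its Cntrl livers, the side where it was higher, lifted that mean.

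For the other members the data bound the difference. Among the 9 others at ZT12 the 95% intervals lay between -0.42 and 1.11 on the log2 scale, both ends set by Gpam. Among all 10 at ZT0 they lay between -1.16 (Mogat1) and 0.79 (Lpin1). The 2 abundant acyltransferase transcripts were bounded more tightly, Dgat2 to -0.19 to 0.26 at ZT0 and -0.08 to 0.40 at ZT12, and Agpat2 to -0.58 to 0.00 at ZT0 and -0.22 to 0.34 at ZT12. Lpin1 averaged 7.64 FPKM in Libramed and 5.59 FPKM in Cntrl at ZT0, and 55.2 and 40.6 FPKM at ZT12. Its interval over both times, -0.01 to 0.77, includes 0. Without Libramed ZT12 replicate 1, the lowest liver of its group, the Lpin1 difference at ZT12 was 0.71 (unadjusted p = 0.0105, adjusted p = 0.834, limma).

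The interaction asks whether the difference between times itself differed between the treatments. None of the 10 had an unadjusted p under 0.05, against 6.63% of all genes, and adjusted calls were at 0% of genes. The smallest unadjusted p was 0.0686, for Agpat2, whose means at ZT0 and ZT12 were 292 and 269 FPKM in Cntrl and 237 and 282 FPKM in Libramed, differences that did not pass in either treatment. For Lpin1 the interaction was 0.03 with a 95% interval of -0.78 to 0.85, and for Dgat2 0.12 with -0.17 to 0.42. These intervals leave room for differences of appreciable size.

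By mean over the 12 livers the order of levels was Dgat2 at 351 FPKM, Agpat2 at 270, Agpat3 at 64.4, Mgll at 53.9, Lpin2 at 37.8, Lpin1 at 27.3, Pnpla2 at 24.9, Gpam at 21.8, Dgat1 at 16.1 and Mogat1 at 1.12. The ranges of neighbours in this order were apart only between Agpat2 and Agpat3 and between Dgat1 and Mogat1. The order changed with time of day. Lpin1 was under Pnpla2 in all 6 livers at ZT0 and above it in all 6 at ZT12. Mgll was under Agpat3 in all 6 livers at ZT0 and above it in 5 of 6 at ZT12.

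Of 30 other genes of the pathway 28 were tested, since Agpat4 and Mogat2 lay under the minimum. Over both treatments 12 were higher and 5 lower at ZT12, where 29.7% of all genes passed and 15.9% passed upward. Gpat2, among the lower ones, reached the minimum only through its ZT0 livers, as given below. Within Cntrl 6 were higher and 2 lower, against 10.4% of all genes in either direction and 5.62% upward. Within Libramed 9 were higher and 2 lower, against 12.4% and 7.0%. The median difference over both treatments was 0.21, against 0.01 over all genes. None passed in a comparison of Libramed with Cntrl or in the interaction. Those named next are the 10 with the smallest p, by their log2 difference over both treatments and limma's adjusted p, with current symbols where the table uses older ones.

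Hydrolases led the list. Ces1d, the triacylglycerol hydrolase of the endoplasmic reticulum, rose by 2.00 (adjusted p = 1.93e-06), from 144 to 234 FPKM over the 6 mice at ZT0 to between 619 and 960 FPKM at ZT12. Ces1g, a related carboxylesterase, rose by 1.29 (adjusted p = 2.07e-05). Carboxylesterases of this cluster are close in sequence, so reads may be split among them. Abhd6, a monoacylglycerol hydrolase, rose by 0.92 (adjusted p = 0.000306). Ddhd2, a lipase of brain and other tissues, rose by 0.89 (adjusted p = 3.55e-05).

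Among genes of acylation, Gpat4 rose by 0.66 (adjusted p = 0.000858), Agpat1 by 0.53 (adjusted p = 0.000959) and Gpat3 by 0.81 (adjusted p = 0.00322). Gpat2 fell by 0.49 (adjusted p = 0.00295), at a level of 0.532 to 1.91 FPKM close to the minimum. All its ZT12 livers lay under the minimum, at 0.532 to 0.878 FPKM. It was tested only because its ZT0 livers, the side where it was higher, lifted the mean. Plpp1, a lipid phosphate phosphatase outside the lipin family, fell by 0.74 (adjusted p = 4.72e-05). Plin2, which coats lipid droplets, fell by 0.51 (adjusted p = 0.00237), from 265 to 378 FPKM at ZT0 to between 192 and 263 FPKM at ZT12.

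**Figure D4:**
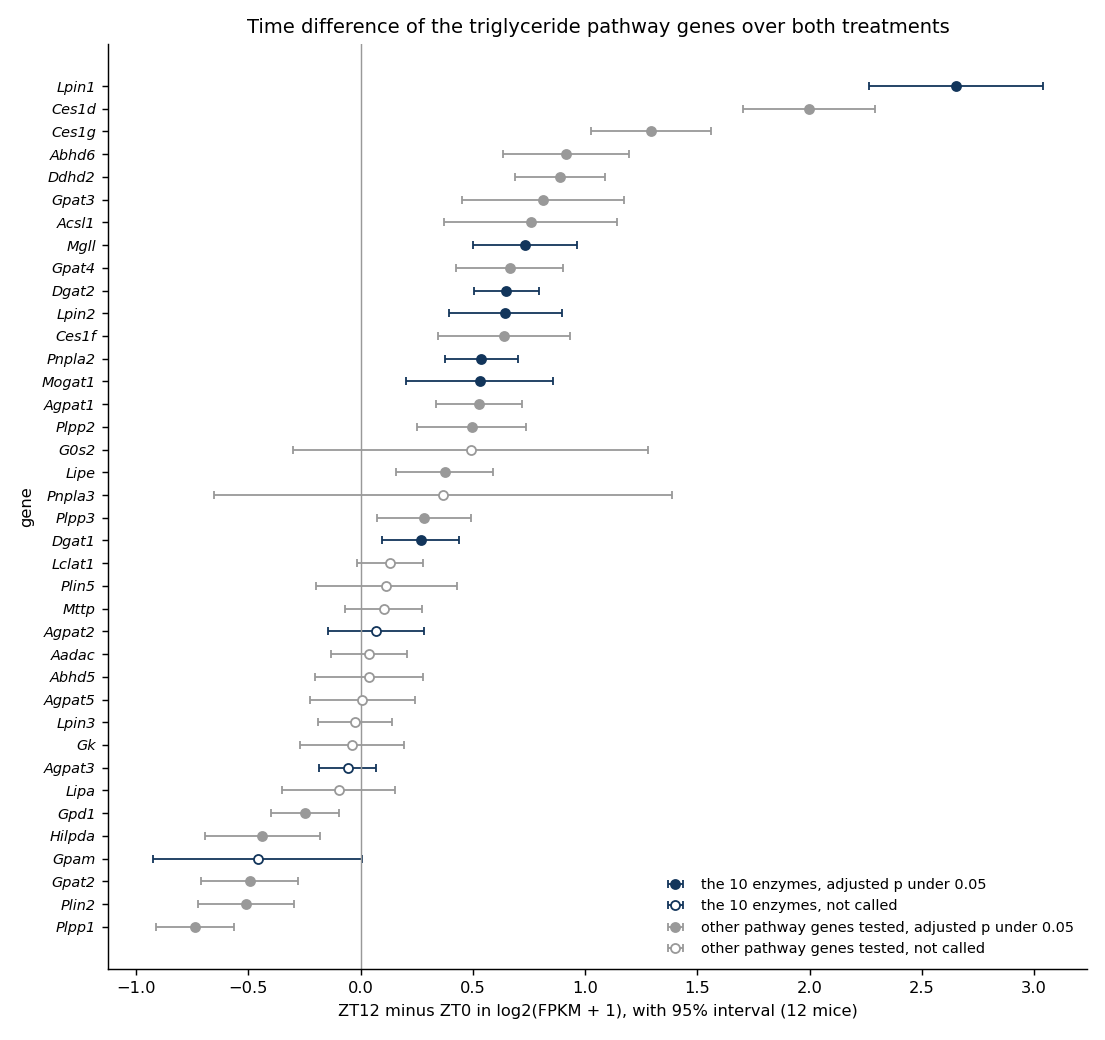
Difference between ZT12 and ZT0 over both treatments in log2(FPKM + 1), with 95% intervals, for the 10 enzymes (dark) and 28 other pathway genes (grey), filled where the adjusted p is under 0.05. Lpin1 at 2.65 is at the top, followed by Ces1d at 2.00, and Plpp1 at -0.74 is at the bottom.

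For the 3 members whose group means spanned the widest range, the tested genes of most similar pattern were found by Pearson's r of log2 values over the 12 livers. For Lpin1 and Lpin2, whose times form separate groups, r largely reflects the time difference. For Mogat1, whose times overlap in Cntrl, r also takes in the difference between treatments. No p is given with r. Among the closest to Lpin1 were Upp2 (r = 0.980, 23.4 to 381 FPKM) and Podn (0.976). Closest to Mogat1 were Enoph1 (0.938), Slc39a13 (0.915) and Lpgat1 (0.911). Closest to Lpin2 were Hrg (0.941), Fcgrt (0.928) and Nr1i2 (0.928).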

How the data were processed

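RNA was measured in 12 livers, grouped by the sample labels. The authors deposited 1 table of FPKM per gene. Their methods describe stranded mRNA libraries aligned to mm10 with ELAND and call the unit RPKM, while the submitters' processing notes name TopHat and Cuffnorm and the labels a TruSeq RNA v2 kit. No counts were used and depth is known only relatively (0.712 to 1.26), so replicate spread sets the precision. Of lines that repeat a symbol (289 of 24138) the highest was kept.

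Genes averaging 1 FPKM or more over the 12 livers were tested on the log2(FPKM + 1) scale with limma 3.58.1 in R 4.3.3 (mean-variance trend, two-sided, Benjamini-Hochberg adjustment over 9806 genes), in fits of 6 mice within a time or treatment and of 12 mice for both. "Rose" and "fell" mean adjusted p under 0.05. A fold on this scale understates changes of low genes. Single members were also tested by exact permutation over mice. Calculations were checked on simulated data.

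All 10 members are named, with differences where the unadjusted p was under 0.05, apart from values given for fits without 1 library. Of other pathway genes the 10 with the smallest p were named among those that passed, and for the 3 members with the widest range the 3 genes of highest r, of which 1 is not reported here. Members and lists were chosen with earlier results of these data known. Positions are from GENCODE on mm10, promoters from RefSeq. Alternatives were a pseudocount of 0.1, no minimum or one of 5 FPKM, no trend, median-ratio scaling, quantile normalization, Cyber-T (window 101, prior weight 10), a fit of all 12 mice, the replicate number as a block, and each library left out.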

Additional observations from a re-analysis of the deposited data

How the results depend on the processing

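The 7 members that rose over both treatments kept their call under all alternatives and with each library left out, except Mogat1 under a minimum of 5 FPKM, which removes it (6 to 8 members in all). No member passed in a comparison of Libramed with Cntrl or in the interaction under any alternative. No difference of a member with an unadjusted p under 0.05 as reported changed sign. Among the values of these under the alternatives, 314 stayed on their side of the adjusted threshold, 34 lost the call and 9 gained it, all within 1 treatment. Of the remaining members, Gpam passed for ZT12 against ZT0 in Cntrl with Cyber-T and over both treatments without Libramed ZT12 replicate 1. No alternative moved the median of all genes by over 0.1.

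With no minimum FPKM, which adds genes to the adjustment, ZT12 against ZT0 gave 3 members, 5 other pathway genes and 515 of all genes in Cntrl (1020 as reported), and 2, 7 and 639 in Libramed (1212 as reported). A minimum of 5 FPKM gave 5 other pathway genes in Cntrl, and it left no member at an unadjusted p under 0.05 for Libramed against Cntrl, at ZT12 or over both times (0), since Mogat1 was gone. The fit of all 12 mice gave 1539 genes in Cntrl. For Libramed against Cntrl at ZT0, members at an unadjusted p under 0.05 numbered 1 with a pseudocount of 0.1 or without the trend, and 2 with quantile normalization, Cyber-T or the fit of all 12 mice. Over both times they numbered 2 with a pseudocount of 0.1, median-ratio scaling or quantile normalization, Lpin1 being the second. Cyber-T called 69 genes at ZT0 and 23 at ZT12, none of them members. Over both times 2 genes passed as reported, 1 with no minimum and 0 with either scaling.

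The labels do not say whether the replicate numbers pair the mice, and correlations within groups of 3 cannot settle it. Samples of the same number deviated from their group means together in 4 of 18 pairs (r over 0.1, range -0.279 to 0.341), and 3 of 12 correlated best with their own number. With the replicate number as a block, which also takes degrees of freedom, 1 member (Lpin1) and 279 genes passed in Cntrl and 709 genes in Libramed, 1 member had an unadjusted p under 0.05 at ZT0 and 2 genes passed there, and over both times 0 genes passed. The block moved no other count by over 1.5 times.

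Without 1 library, the calls for ZT12 against ZT0 in Cntrl ranged from 1 to 5 members and from 226 to 869 genes, and in Libramed from 2 to 4 members and from 535 to 1014 genes. Members at an unadjusted p under 0.05 ranged from 0 to 1 at ZT0, from 1 to 2 at ZT12, from 0 to 2 for the interaction and from 1 to 2 over both times for Libramed against Cntrl. Genes passing ranged from 0 to 7, 0 to 1, 0 to 1 and 0 to 1 in these.

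Without read counts, the counting error of low genes such as Mogat1 is not known. With 3 mice a group, differences between treatments under about the width of the intervals given could not be detected.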

Other observations

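Libramed ZT12 replicate 1, the liver with the highest Gpam and the lowest Lpin1 of its group, also had Pnpla3, a lipase homologue known to follow carbohydrate feeding, at 9.77 FPKM, while the other livers lay between 0.0514 and 1.19 FPKM. Pnpla3 was among the pathway genes listed but was chosen for mention after its values were seen.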
